A study of Rattus norvegicus with 12 samples.

Results

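The BCL2 family genes are followed here through a knockout of Vdac1 in a rat neural cell line. The 10 members were chosen by name: 4 that protect cells from death (Bcl2, Bcl2l1, Bcl2l2 and Mcl1) and 6 that promote it (Bax, Bak1, Bid, Bad, Bcl2l11 and Bbc3). Every array spot that is no control and whose gene name in the scanner file is one of these was taken, which gave 20 of the 45598 distinct probes and 10 of the 36174 distinct gene names on the array. A probe entered the test where 5 or more of the 12 arrays read it well above background. That held for 14 of the 20, and each of the 10 genes kept at least 1 of them. Membership was set by gene name, without measured values, while entry to the test used signal over background.

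All cells were N27, an immortalised rat line derived from the midbrain and labelled as dopaminergic neurons. The knockout group (KO) comprised 7 cultures, numbered 1 to 7 in the labels, from which VDAC1 had been removed with CRISPR. The wild-type group (WT) comprised 5 unedited cultures of the same line, numbered 3 and 5 to 8, and no other agent or allele is named for either group. RNA of each culture was read on 1 single-colour Agilent array. Neither the number of knockout clones nor the place of the edit is given in the sources used here, and the labels do not say what the sample numbers mean. Whether the cultures were grown independently is likewise not stated, so each p-value refers to the spread between them and no wider. In RNA from a whole culture, fewer cells of a type and less RNA per cell cannot be told apart.

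Values are log2 spot signal relative to the array's 75th percentile, so 0 marks the same signal as that percentile, and levels are compared only within a probe. That percentile ran from 120.1 to 691.8 between arrays, 42.3% to 53.8% of spots were well above background and 0 spots were saturated. Vdac1, the targeted gene, was lower on every KO array than on every WT array at each of its 3 probes, and at the brightest it lay between 1.20 and 2.68 in KO and between 3.07 and 3.61 in WT. Of the dopaminergic markers Th and Aldh1a1 were well above background on all 12 arrays, Slc18a2 was so on 9, Nr4a2 on 5, Lmx1b on 4, Pitx3 on 1, and Ddc, Slc6a3 and Foxa2 on none. Of 8 neuronal markers Tubb3 was above it on 7 arrays, Rbfox3 and Syt1 on 1 each and the other 5 on none. The progenitor markers Nes and Vim and the fibroblast markers Col1a1 and Thy1 were above it on all 12, Sox2 on 7, Col1a2 on 8 and Pdgfra on 6. Of the microglia and leukocyte markers Cd68 was above it on all 12, Aif1 on 2 and Ptprc and Itgam on none, and each of the 8 astrocyte and oligodendrocyte markers was above it on 3 arrays or fewer. The arrays lay on 3 slides. KO 6, KO 7, WT 3 and WT 8 shared slide 1, KO 1, KO 2, KO 3 and WT 5 slide 2, and KO 4, KO 5, WT 6 and WT 7 slide 3, the only slide of the second scan day. The number of arrays limits the precision.

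Proteins of this family decide at the outer mitochondrial membrane whether a cell enters the intrinsic pathway of apoptosis. Bax and Bak1 assemble into pores that let cytochrome c out, Bcl2 and its protective relatives hold them in check, and the BH3-only proteins, which share a single short domain with the rest, sense stress and tip that balance. VDAC1, the channel removed in the knockout, lies in the same membrane, and its relative VDAC2 is known as a binding partner of BAK1.

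The probes on which the results turn are 60 bases long, and 8 of them are shown because the values below belong to these bases and not to the whole gene. All are copied from the scanner files, 5′ to 3′. Base numbers are the start positions in those files, and probes of the same gene need not share a numbering. The first begins at the start codon of Bcl2l1 and the second ends at the stop codon of Bax, both in capitals.
Bcl2l1, base 163 of its transcript: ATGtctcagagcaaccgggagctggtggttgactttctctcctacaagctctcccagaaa
Bax, base 608: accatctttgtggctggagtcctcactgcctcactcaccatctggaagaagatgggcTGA
Mcl1, base 876: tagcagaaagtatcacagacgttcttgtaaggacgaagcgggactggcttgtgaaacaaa

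Bcl2l11, which encodes BIM, has a pair of coding probes that share 24 bases, here in capitals, the end of one being the start of the other. Neither was bright enough to be tested.
Bcl2l11, base 758: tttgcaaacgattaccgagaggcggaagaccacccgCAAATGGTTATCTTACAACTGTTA
Bcl2l11, base 363: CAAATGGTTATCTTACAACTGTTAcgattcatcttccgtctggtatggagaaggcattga

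For the brightest probe of Bak1, of Bid and of Bcl2l11, which lie far along their transcripts, the first 30 bases are given.
Bak1, base 1775: tggggggtgtttttctctgtcttgcacaac
Bid, base 943: cagctctggcatccatgccacgtaccttgg
Bcl2l11, base 4717: ggaatccttctcaaacagcgttgcacaaag

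The scanner files place these probes on build rn4, and those positions are given as the files have them, without a check on the genome. Bcl2l1 base 163 lies on chromosome 3 at 143178503 to 143178562 (minus strand), Bax base 608 on chromosome 1 at 95933023 to 95933082 (minus) and Bak1 on chromosome 20 at 5256042 to 5256101 (minus). Bid lies on chromosome 4 at 157296412 to 157296471 (minus), and Bcl2l11 base 4717 on chromosome 3 at 115726565 to 115726624 (plus). The overlapping Bcl2l11 probes lie at 115722606 to 115722665 and 115722642 to 115722701 on that chromosome. The files leave Mcl1 on an unplaced part of chromosome 2 and give Bbc3 no position.

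No BCL2 family member passed the test between knockout and wild type. limma, fitted over all 17886 tested probes with Benjamini-Hochberg adjustment over them, called 126 probes higher and 79 lower in KO, 1.15% of those tested, and 0 of the 10 members in either direction. At an unadjusted p under 0.05, which 15.8% of all tested probes reached, 1 member was counted, Bcl2l11. Adjusted p-values of the members' brightest probes ran from 0.301 to 0.984. With quantile normalization the split over all probes was 66 higher and 63 lower, and in the authors' deposited values it was 64 and 65, with 0 members called by either. The deposited values are labelled as quantile normalized too, so these are not separate checks. KO and WT values overlapped at each of the 14 tested member probes. The groups were apart at 2.67% of all tested probes measured on every array, and no test set the members' share apart from that.

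As a description, the brightest probes had a higher mean in KO for 6 members and a lower one for 4, with a median difference of 0.06 (0.03 over all tested probes, of which 54.3% had a higher mean). The median was 0.05 over the 4 protective members (-0.05 to 0.14 when single arrays were left out) and 0.15 over the 6 death-promoting ones (0.08 to 0.26). In the plot of values by array the members differed mainly in spread: Bak1 covered more than 2 log2 units within each genotype, whereas Bbc3 stayed within 0.38 to 0.71 in KO. In WT Bbc3 ran wider, from -0.18 to 1.08.

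**Figure D1:**
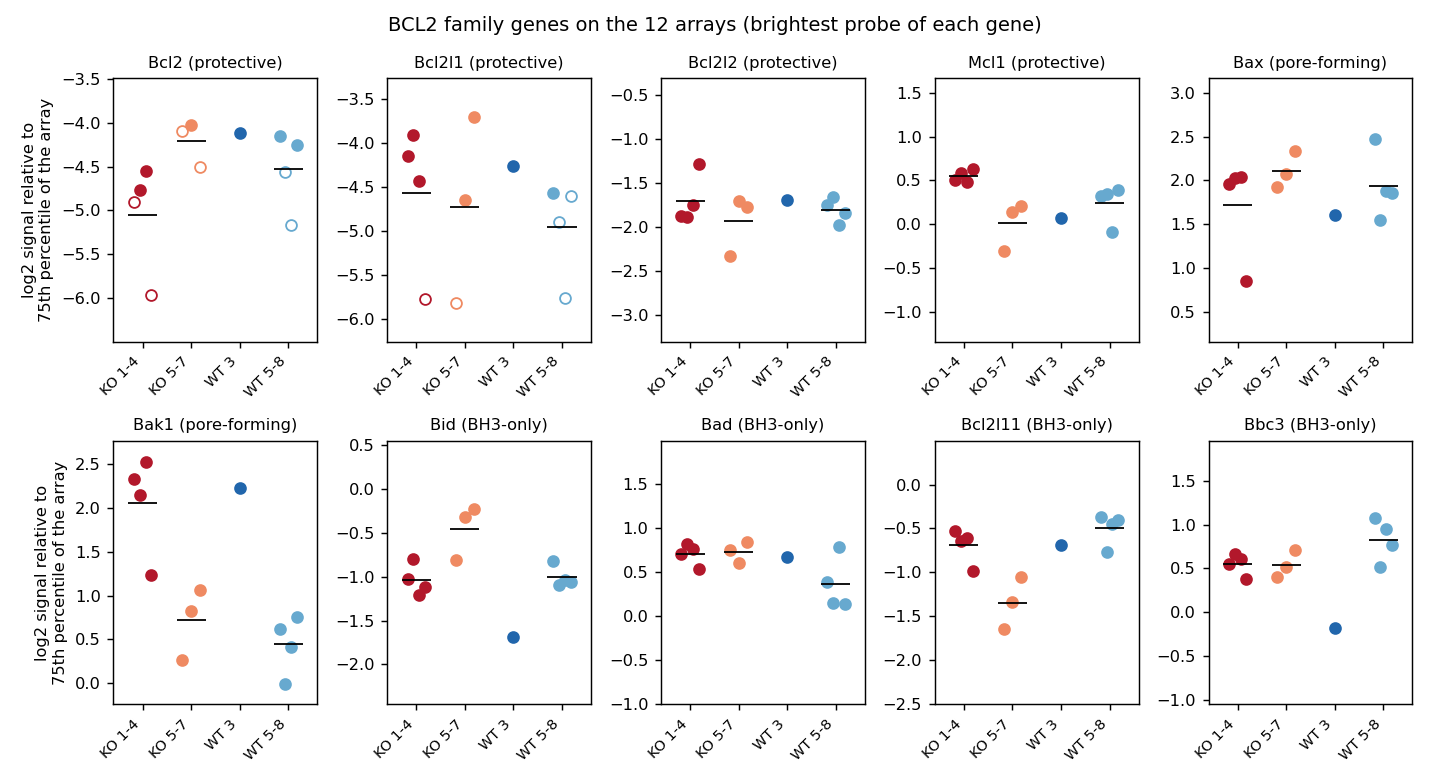
Log2 signal of the brightest probe of each BCL2 family gene relative to the array's 75th percentile (vertical axis, with the same span in all panels), for arrays KO 1-4, KO 5-7, WT 3 and WT 5-8. Each point is 1 array, open where the probe was not well above background, and lines are means. Bak1 stands at 2.14 to 2.53 on KO 1, KO 2, KO 3 and WT 3 and at 1.23 or less on the other arrays.

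Among the protective members, Mcl1, a short-lived inhibitor of Bak1 and of BIM, was well above background on all 12 arrays at both its probes. At base 876 it ranged from -0.30 to 0.63 in KO, with a median of 0.48, and read 0.07, 0.32, 0.35, -0.08 and 0.39 on WT 3, WT 5, WT 6, WT 7 and WT 8. KO held both the highest and the lowest arrays. The mean was 0.32 ± 0.33 (SD, n = 7) in KO and 0.21 ± 0.21 (SD, n = 5) in WT, a difference of 0.11 (95% interval -0.26 to 0.49, limma adjusted p = 0.805). The probe at base 1291 gave 0.06 (adjusted p = 0.901).

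Bcl2l2, which encodes BCL-W, had the narrowest wild-type spread of the members, from -1.98 to -1.66 at base 3432. The KO arrays lay around them, from -2.33 on KO 5 through a median of -1.77 to -1.29 on KO 4. The difference was -0.01 (95% interval -0.36 to 0.33, limma adjusted p = 0.979), an interval from 0.78-fold to 1.26-fold. Its dimmer probe at base 557 was well above background on 2 KO arrays and on 0 WT arrays. It ran from -5.24 to -4.06 in KO and from -5.84 to -4.23 in WT, and was not tested.

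Bcl2, the founding member, and Bcl2l1, which encodes BCL-XL, gave signal near background. The Bcl2 probe was well above it on 3 KO and 3 WT arrays, and its values ran from -5.96 to -4.03 in KO (median -4.55) and were -4.11, -4.15, -4.56, -5.16 and -4.25 in WT. Their difference was -0.24 (95% interval -0.90 to 0.42, limma adjusted p = 0.744), and it ran from -0.42 without WT 7 to -0.03 without KO 4. Bcl2l1 at the start codon probe was well above background on 5 KO and 2 WT arrays.

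That Bcl2l1 probe ran from -5.82 to -3.70 in KO (median -4.43) and read -4.27, -4.57, -4.90, -5.76 and -4.61 in WT. The groups overlapped over nearly their whole range, and the difference was 0.19 (95% interval -0.66 to 1.04, limma adjusted p = 0.865). Of the 3 other Bcl2l1 probes, 2 carry the same 60 bases, and they gave -0.96 and 0.10. On WT 8 one of this pair read -2.64 and the other -5.74, so at this brightness identical sequences did not return 1 value. On 0 KO and 2 WT arrays the first was well above background. Its KO and WT values overlapped, and it was not tested.

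The pore-forming pair behaved unlike each other across arrays. Bax, a cytosolic protein that moves to mitochondria when activated, was bright at both its probes and close to 2 on most arrays. At base 736 it lay between 0.86 and 2.34 in KO, with a median of 2.03, and at 1.61, 2.47, 1.55, 1.88 and 1.85 on the WT arrays in order. KO 4 alone read below 1 there, and at the stop codon probe the same array gave 1.07 against 1.75 to 2.25 on the other KO arrays. The difference was 0.02 (95% interval -0.50 to 0.53, limma adjusted p = 0.984) at base 736 and -0.08 (adjusted p = 0.890) at base 608. At base 736 it was -0.03 with median centring, -0.05 with quantile normalization and -0.08 in the authors' deposited table, which is quantile normalized too.

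Bak1, which sits in the mitochondrial membrane at rest, had the largest difference of the 10 members and also the largest spread of the brightly measured ones. Its probe read 2.32, 2.14, 2.53 and 1.23 on KO 1 to KO 4 and 0.26, 0.82 and 1.06 on KO 5 to KO 7. In the wild type it read 2.23 on WT 3 and 0.62, -0.01, 0.41 and 0.76 on WT 5 to WT 8. The 4 highest arrays were thus KO 1, KO 2, KO 3 and WT 3, and 1 wild-type array stood among them. The mean was 1.48 ± 0.86 (SD, n = 7) in KO and 0.80 ± 0.85 (SD, n = 5) in WT, 1.60-fold higher in KO with an interval from 0.83-fold to 3.10-fold (log2 difference 0.68, limma adjusted p = 0.476). Without WT 3 the difference was 1.04 (adjusted p = 0.158).

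Of the BH3-only members, Bcl2l11 came nearest to the threshold. BIM, its product, binds all the protective proteins. At base 4717 the KO arrays ran from -1.64 to -0.53 with a median of -0.99, and WT 3 to WT 8 read -0.69, -0.37, -0.77, -0.45 and -0.41. KO 4 to KO 7 lay below every wild-type array, and KO 1, KO 2 and KO 3 lay among them. The mean was -0.97 ± 0.41 (SD, n = 7) in KO and -0.54 ± 0.18 (SD, n = 5) in WT, a log2 difference of -0.44 (1.35-fold lower) with an unadjusted p of 0.0453 and a limma adjusted p of 0.301. Its overlapping coding probes were well above background on 2 and 0 of the 12 arrays.

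Bid, cut by caspases to link death receptors to mitochondria, lay between -1.21 and -0.23 in KO, with a median of -0.81. It read -1.68 on WT 3 and -0.82, -1.10, -1.04 and -1.06 on WT 5 to WT 8. KO 6 and KO 7 stood above all other arrays and WT 3 below all of them. The difference was 0.35 (95% interval -0.09 to 0.80, limma adjusted p = 0.424).

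Bad, whose product is held inactive by survival kinases, had 3 tested probes. At its brightest, base 801, the KO arrays were close together, from 0.54 to 0.85 (median 0.75), and the WT arrays were not, at 0.67, 0.38, 0.15, 0.79 and 0.14. WT 5, WT 6 and WT 8 lay below all KO arrays, and the difference was 0.29 (95% interval -0.015 to 0.60, limma adjusted p = 0.336). The probes at bases 105 and 1647 gave 0.10 (limma adjusted p = 0.833) and 0.20 (adjusted p = 0.729). Base 1647 is placed at 209619214 and base 801 at 209626093, both on the plus strand. The base numbers thus do not give the order of these probes.

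Bbc3, which encodes PUMA, a target of p53, ran from 0.38 to 0.71 in KO, with a median of 0.55. The wild type stood both below and above that band, at -0.18 on WT 3 and at 1.08, 0.52, 0.95 and 0.77 on WT 5 to WT 8. The difference was -0.08 (95% interval -0.49 to 0.33, limma adjusted p = 0.881).

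**Figure D2:**
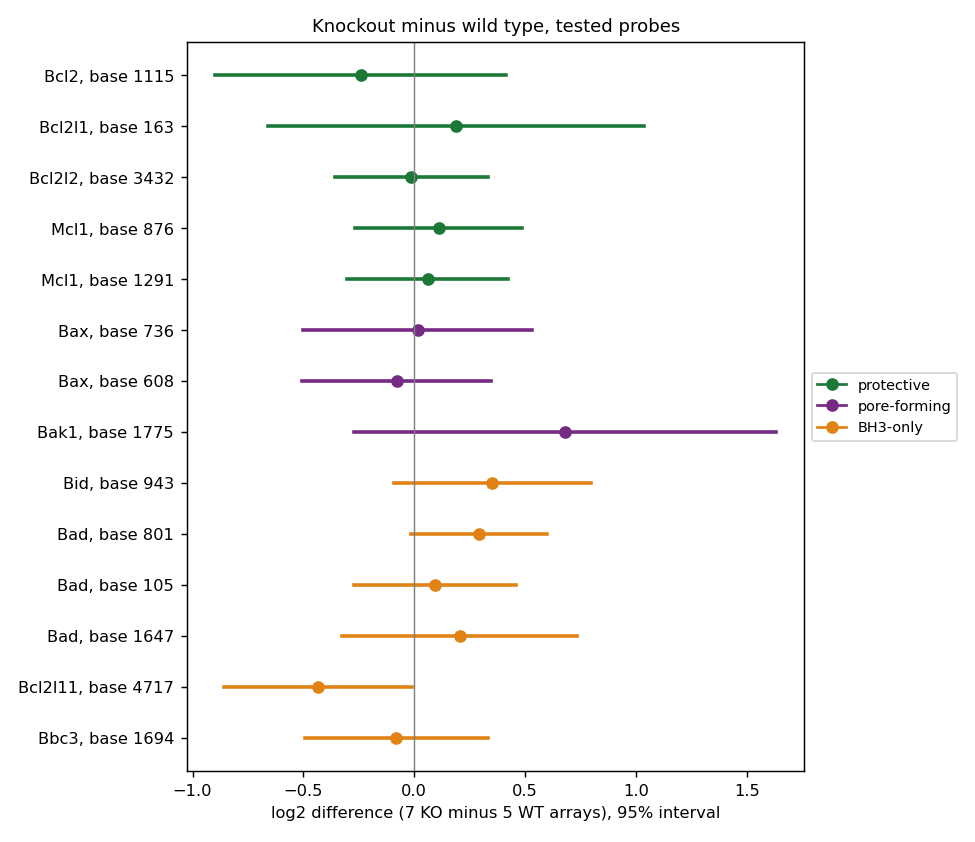
Log2 difference of each tested BCL2 family probe, mean of 7 KO arrays minus mean of 5 WT arrays (horizontal axis), with limma's 95% interval, by probe and coloured by role. The interval of Bcl2l11 at base 4717, -0.86 to -0.01, is the only one of the 14 that leaves out 0, and it is not adjusted for the number of probes.

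Within the knockout, Bak1, Bcl2l11, Mcl1 and Bid differed between arrays of low and of high sample number. Arrays of this series had been seen to part by sample number, 1 to 4 against 5 to 8, and the sets compared next were drawn with that known, so the tests describe these arrays and are no independent support. Between KO 1-4 and KO 5-7 limma called 4 of the 10 members, beside 25.7% of all tested probes (2054 higher and 2537 lower in KO 1-4), and no test set the members' share apart from that of all probes. The sets did not overlap for 4 members, beside 36.8% of all tested probes measured on every array.

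Bak1 was 2.53-fold higher in KO 1-4, at 2.06 ± 0.57 (SD, n = 4) against 0.72 ± 0.41 (SD, n = 3), with its lowest value of the first set, 1.23, above the highest of the second, 1.06 (limma adjusted p = 0.00968). Bcl2l11 read -0.53, -0.64, -0.61 and -0.99 on KO 1 to KO 4 and -1.64, -1.34 and -1.05 on KO 5 to KO 7, 1.57-fold higher in the first set without overlap (log2 difference 0.65, adjusted p = 0.0204). Mcl1, the protective member among the 4, read 0.50, 0.58, 0.48 and 0.63 against -0.30, 0.14 and 0.21. It was 1.45-fold higher in KO 1-4, again without overlap, at base 876 (0.53, limma adjusted p = 0.0336) and higher by a like amount at base 1291 (0.50, adjusted p = 0.0162).

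Bid went the other way. It read -1.03, -0.80, -1.21 and -1.12 on KO 1 to KO 4 and -0.81, -0.32 and -0.23 on KO 5 to KO 7, 1.502-fold lower in the first set (log2 difference -0.59, limma adjusted p = 0.0251), with KO 2 and KO 5 at nearly the same value. The other 6 members did not pass: Bcl2 differed by -0.84 without overlap (adjusted p = 0.0889), and Bax, Bcl2l1, Bcl2l2, Bad and Bbc3 by -0.39 to 0.23 (adjusted p from 0.373 to 0.977). In the plot of the sets, the called members thus hold a pore former, a protector and 2 BH3-only genes.

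**Figure D3:**
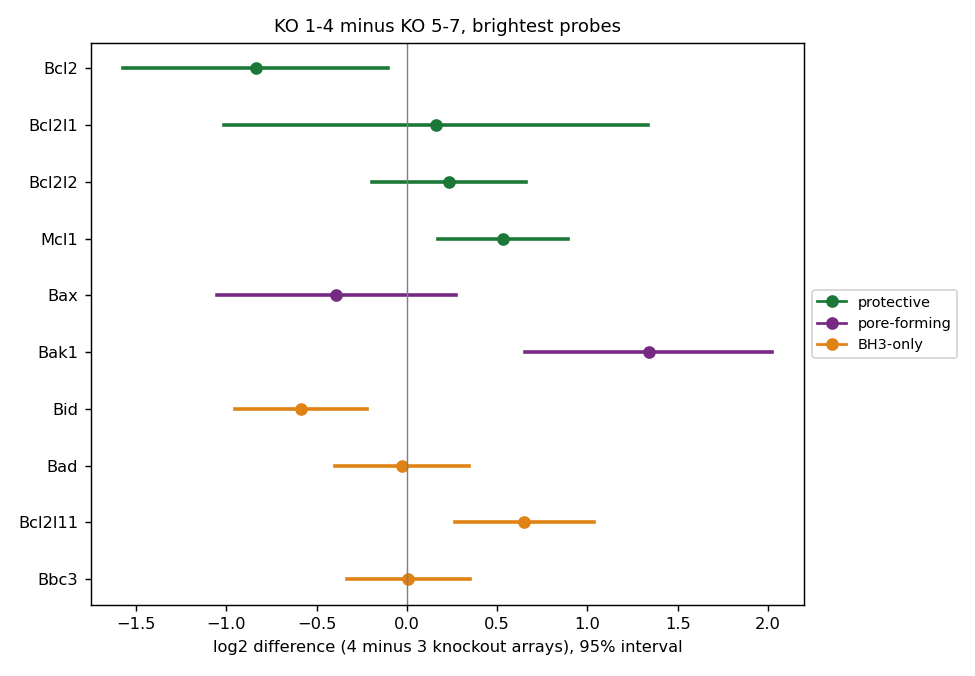
Log2 difference of the brightest probe of each BCL2 family gene, mean of KO 1-4 minus mean of KO 5-7 (horizontal axis), with limma's 95% interval, coloured by role. Bak1 (1.34), Bcl2l11 (0.65) and Mcl1 (0.53) lie right of 0 and Bid (-0.59) left of it, and Bbc3 lies at 0.01.

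Other measures were compared between these sets as well. Vdac1 itself was higher in KO 1-4 than in KO 5-7 by 1.17 (limma adjusted p = 0.000205), and slide changed with the set in part, since KO 1, KO 2 and KO 3 held slide 2 and KO 6 and KO 7 slide 1. A 3′ index was the log2 signal of probes far along a transcript over that of probes at least 300 bases before them. It ran from 1.615 to 1.74 in KO 1-4 and from 1.55 to 1.70 in KO 5-7, so the ranges overlapped. The part of these measures in the result was not tested beyond the following. On slide 3, where KO 4 and KO 5 were the knockout arrays, KO 4 minus KO 5 was 0.97 for Bak1, 0.65 for Bcl2l11, 0.93 for Mcl1 and -0.31 for Bid. It was -1.86 for Bcl2, which was not well above background on KO 4 or KO 5, and -1.07 for Bax. With slide as a block limma called Bak1 (1.21, adjusted p = 0.0136), Mcl1 (0.72), Bcl2l11 (0.62), Bcl2 (-1.33) and Bax (-0.96), beside 18.1% of all tested probes, and Bid missed the threshold (-0.58, adjusted p = 0.0815). Without KO 4, in the fit with no slide block, Bcl2 came to -0.53 (limma adjusted p = 0.160) and Bax to -0.10 (adjusted p = 0.769). With the 3′ index as a covariate, an alternative chosen after seeing the data, 0 of the 10 passed beside 17% of all tested probes, and the differences of these 4 were 1.12, 0.58, 0.53 and -0.60 for Bak1, Bcl2l11, Mcl1 and Bid (adjusted p from 0.0538 to 0.0931).

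The calls other than that of Bak1 changed when single arrays were left out. Without KO 1, KO 3 or KO 6 in turn, Bak1 alone was called. Without KO 2 or KO 5 it was Bak1 and Bid, without KO 4 Bak1 and Bcl2l11, and without KO 7 Bak1, Bcl2l11 and Mcl1. In these fits 18.5% to 24% of all tested probes were called, and the differences kept their signs, at 1.11 to 1.61 for Bak1, 0.50 to 0.80 for Bcl2l11, 0.37 to 0.63 for Mcl1 and -0.77 to -0.47 for Bid. Median centring moved the median over all tested probes from -0.04 to 0.18 and called 8.06% of them. Tested against 0 in that scaling, Bak1 passed (1.56, limma adjusted p = 0.0219), and Bcl2l11 (0.87), Mcl1 (0.75) and Bid (-0.37) did not. Relative to the median of all probes in each scaling, Bak1 differed by 1.38 in both, Bcl2l11 by 0.69, Mcl1 by 0.57 and Bid by -0.54. The scalings differ only by a constant per array, so these values are the same in both by construction and are no further check.

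The single wild-type array of the low numbers, WT 3, stood apart from WT 5 to WT 8 in some members. For Bak1 it was 1.78 above their mean, and 1.47 above WT 8, its neighbour on slide 1. WT 3 minus the mean of WT 5 to WT 8 was -0.68 for Bid and -1.003 for Bbc3. Of the members called between the knockout sets, Bak1 and Bid thus differed in the direction in which KO 1-4 differed from KO 5-7. Mcl1 and Bcl2l11 did not, at -0.18 and -0.19. Of the members not called, Bax (-0.33), Bcl2l1 (0.69) and Bcl2l2 (0.11) shared that direction too. Bcl2 (0.42), Bad (0.31) and Bbc3 did not. With 1 array there is no spread of its own to set these against.

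Because genotype and sample number are unevenly crossed, the knockout difference was also taken with the number set in the model and within each set. With the number set as a block, Bid was higher in KO by 0.58 (SE 0.14, limma adjusted p = 0.0316) and was the single member called, beside 5.1% of all tested probes. Within the numbers 5 to 8, Bcl2l11 was lower in KO, by -0.84 (SE 0.19, limma adjusted p = 0.0483), the single member called beside 4.21% of probes. There KO 5, KO 6 and KO 7 all lay below WT 5 to WT 8. The share of all tested probes that were apart in these arrays was not taken, so this separation is a description only. Within the numbers 1 to 4, with a single wild-type array, the Bcl2l11 difference was -0.0062. With the block it was -0.58 (limma adjusted p = 0.0896). Bak1, the member with the largest pooled difference, came to 0.13 (adjusted p = 0.813) with the block, 0.27 (adjusted p = 0.594) within 5 to 8 and -0.17 (adjusted p = 0.889) within 1 to 4.

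By slide, Bak1 gave -0.55 on slide 1, 1.71 on slide 2 and 0.55 on slide 3. The value on slide 2 passed (limma adjusted p = 0.0196), and there KO 1, KO 2 and KO 3 were set against WT 5 alone, so sample number and genotype cannot be told apart on it and the p takes its spread from the 3 KO arrays, with no wild-type spread behind it. Bid gave 1.097, -0.20 and 0.11 and Mcl1 -0.06, 0.20 and 0.03, so neither kept 1 sign on the 3 slides. Bcl2l11 gave -0.65, -0.23 and -0.70, lower in KO in value on each slide, with no adjusted p under 0.332.

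**Figure D4:**
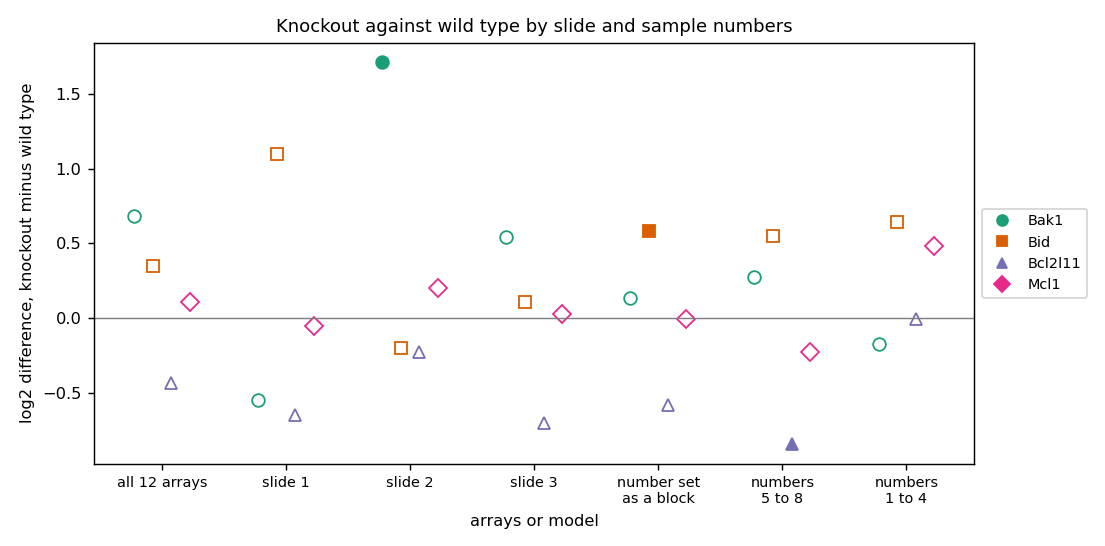
Log2 difference, KO minus WT (vertical axis), of the brightest probes of Bak1, Bid, Bcl2l11 and Mcl1 over all 12 arrays, within each slide, with the number set as a block and within each number set; filled symbols passed limma's adjusted p of 0.05. Bak1 runs from -0.55 on slide 1 to 1.71 on slide 2, while Bcl2l11 stays at or below 0, from -0.84 to -0.01.

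Whether the knockout difference itself differed between the number sets was tested with an interaction term, which rests on WT 3 as the only wild-type array of the low numbers. limma called 0 of the 10 members, beside 1.7% of tested probes, and 3 reached an unadjusted p under 0.05, beside 16.4% of probes. For Bbc3 the difference was larger in the low numbers by 1.01 (SE 0.28, adjusted p = 0.0948), and for Mcl1 by 0.98 (SE 0.23, adjusted p = 0.0607) at base 1291 and 0.71 (adjusted p = 0.249) at base 876. For Bcl2l11 it was 0.84 (adjusted p = 0.207) and for Bak1 -0.44 (adjusted p = 0.742).

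The wider family and its regulators gave 1 call between the genotypes. Of 16 further relatives 11 were tested, and 1 rose, 0 fell and 10 did not pass, beside 1.15% of all tested probes called. Bnip3, a distant relative that acts as a mitophagy receptor, rose by 1.24 (SE 0.17, limma adjusted p = 0.00707). It lay between 0.85 and 1.60 in KO and read 0.20, -0.11, -0.12, 0.31 and -0.27 on WT 3 to WT 8, without overlap. Bcl2l13, another of these relatives, did not overlap either (0.43, limma adjusted p = 0.128). The groups were apart at 2.67% of all tested probes measured on every array. At an unadjusted p under 0.05, which 15.8% of all tested probes reached, 2 of the 11 were higher and 2 lower. The median difference of the 11 was 0.04.

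Of 42 listed regulators of the members 37 were tested and 0 passed at their brightest probe, with 5 higher and 6 lower at an unadjusted p under 0.05 (15.8% over all tested probes). Among the transcription factors that act on BH3-only genes, Ddit3, which encodes CHOP, had the smallest p: 2.12 to 2.62 in KO against 2.36, 2.81, 3.52, 3.16 and 3.24 in WT, a difference of -0.66 (limma adjusted p = 0.109). All 7 KO arrays lay below WT 5 to WT 8, and WT 3 lay among the KO arrays. Pim2, a kinase that phosphorylates BAD, was higher on each KO array than on each WT array (0.54, adjusted p = 0.0791). So was Akt2 (0.35, limma adjusted p = 0.235).

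For the turnover of Mcl1, Bim and Bid, the smallest p was that of Btrc, an adaptor of a ubiquitin ligase (0.45, limma adjusted p = 0.158). Among the proteins that cut or tether BH3-only proteins it was that of Dynll1, a dynein light chain that holds BIM (0.23, adjusted p = 0.607). Among partners in the membrane it was that of Vdac1 (-1.23, adjusted p = 0.0561), whose probe at base 880 passed (-1.22, adjusted p = 0.0422). Vdac2, the channel known to bind BAK1, differed by -0.04 (SE 0.23, adjusted p = 0.960).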

How the data were processed

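Total RNA was Trizol-extracted and Cy3-labelled, per the labels' protocols. Images were read with Agilent Feature Extraction 10.7, per the submitters' processing notes, while the file headers name 10.1.1.1. The deposited scanner files hold each spot's linear intensity (processed, mean and local background signals), per the file headers, with other columns of flags such as well above background. The authors' deposited value table holds log2 values, quantile normalized per the sample titles, and was used as an alternative. Spots flagged as uneven or as outliers were left out, log2 processed signals were averaged per probe, and the array's 75th percentile over spots that are no controls was subtracted. limma 3.58.1 in R 4.3.3 (lmFit, eBayes, two-sided) was fitted on probes well above background on at least 5 arrays and was checked on simulated data. A call is a Benjamini-Hochberg adjusted p under 0.05 over all tested probes. The probe with the highest mean over the arrays stands for a gene.

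The members, lists, number sets and alternatives were chosen with earlier results of these data known. The genes named are the 10 members, Vdac1, and per wider list the called members (up to 4 by smallest p) or, with none called, the member with the smallest unadjusted p. Vdac2, Bcl2l13, Akt2 and the marker genes were added as context. Alternatives changed the background correction (normexp, offset 50), scaling, source of values, filter on dim probes, probes per gene, slide, number set, replicate block, array weights, each array left out, and the 3′ index as a covariate.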

Additional observations from a re-analysis of the deposited data

Results flagged for a closer look

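In 28 groups of arrays (14 tested member probes in each genotype) the most distant array was compared with Dixon's critical value at the 95% level, at which chance flags about 1 in 20 groups, and 3 passed. For Bax, KO 4 lay below the other KO arrays at both probes, at 0.86 at base 736 and at 1.07 at base 608. For Bad at base 105, WT 7 lay above the other WT arrays, at -1.49. At the 2 other Bad probes WT 7 did not pass this measure.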

How the results depend on the processing

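In 25 of 29 alternatives the count of members called between KO and WT was 0, as in the fit reported. It was 1 within slide 2 (Bak1), with the number set as a block (Bid) and in the numbers 5 to 8 alone (Bcl2l11), and 2 with array weights (Bak1, 1.38, and Bad, 0.47), which called 6058 probes in all. Leaving out single arrays gave 0 throughout. Over all probes the calls numbered 31 with normexp, 129 with quantile normalization, 129 in the deposited table, 342 for probes above background on all arrays, 472 with slide as a block, 2163 within slide 2, 913 with the number set as a block, 753 in the numbers 5 to 8, 53 in the numbers 1 to 4 and 18 to 775 without single arrays. They were 0 with median centring (626 higher and 867 lower at an unadjusted p under 0.05), without the dim filter (1318 and 1116), within slide 1 (1184 and 957) and within slide 3 (518 and 446). Of all tested probes, 1.15% were called in the fit reported, 5.1% with the number set as a block and 33.9% with array weights. The share was 2.64% with slide as a block and 4.21% in the numbers 5 to 8. In the fit reported 11 genes of the wider family and 37 regulators were tested. No test set their shares apart from those of all probes. The wider family and regulators had 2 calls with quantile normalization, in the deposited table and in the numbers 5 to 8, 3 for probes above background on all arrays, with slide as a block and with the 3′ index, 5 with the number set as a block, 10 within slide 2, 24 with array weights, 1 to 3 without single arrays, and 0 with median centring, without the dim filter, within slides 1 and 3, in the numbers 1 to 4 and with the replicate block.

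The replicate block, which pairs KO and WT of the same number, called 0 members and 0 probes (1077 higher and 772 lower at an unadjusted p under 0.05). Deviations of same-numbered arrays correlated at 0.44, -0.11, 0.067 and 0.050 for the numbers 3, 5, 6 and 7, and 0 of the 4 WT arrays correlated best with its own number, so the numbers were not taken to pair the cultures.

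Of differences between KO and WT that had not passed, some changed sign. Bax gave -0.051 with quantile normalization, -0.028 with median centring, -0.076 in the deposited table, -0.070 with slide as a block, -0.46 and -0.32 within slides 2 and 3, -0.060 with array weights and -0.065 to 0.19 without single arrays. Bcl2l2 gave 0.034 and 0.013 within slides 1 and 3, 0.0068 with array weights, 0.0059 with the 3′ index and -0.10 to 0.074 without single arrays. Bcl2l1 gave -0.056 with normexp, -0.47 within slide 3, -0.30 in the numbers 1 to 4 and -0.047 to 0.39 without single arrays. Mcl1 gave -0.056 within slide 1, -0.0033 with the number set as a block, -0.23 in the numbers 5 to 8 and -0.033 with the replicate block. Bbc3 gave 0.31 within slide 1, 0.035 with the number set as a block, 0.72 in the numbers 1 to 4 and -0.28 to 0.031 without single arrays. Bcl2 gave 0.32 in the numbers 5 to 8 and 0.20 with the replicate block. Bak1 gave -0.55 within slide 1 and -0.17 in the numbers 1 to 4, and Bid -0.20 within slide 2. The median of the death-promoting members was -0.21 within slide 2 and -0.11 within slide 3. The cause was not tested.

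Between KO 1-4 and KO 5-7 the called members numbered 1 with normexp and with median centring (7.46% and 8.06% of all tested probes called), 0 without the dim filter and with the 3′ index (3.6% and 17%), and 1 to 3 without single arrays (18.5% to 24%). Signal over background limits Bcl2 and Bcl2l1, which 6 or 7 of 12 arrays measured.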
